A study of Rattus norvegicus with 8 samples.

Results

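Intermediate filament proteins were followed through 10 genes chosen by name: the keratins Krt8, Krt18 and Krt19, the type III proteins Vim, Gfap and Prph, nestin (Nes), the neurofilament chains Nefl and Nefm, and the nuclear lamin gene Lmna. All probe sets that the array's annotation assigned to 1 of these symbols alone were taken, which gave 13 of the 8799 probe sets on the array and covered 9 of the 10 genes. No probe set was assigned to Gfap, so it has no value here. The samples were 8 RNA samples of the rat line Htt14A2.5, a derivative of PC12, which came from a rat adrenal medullary tumour. The line carries an inducible, truncated, mutant first exon of human huntingtin. By their titles, 4 samples were induced with ponasterone (PA, a steroid inducer) and 4 were uninduced (-PA). The labels give 48 h of ponasterone, and the free text of all 8 samples mentions induction, so the titles alone set the groups. The parts of the induction system, its promoter and the origin of the replicates (separate cultures or aliquots) are not stated in the labels, and all 8 samples come from 1 line. No uninduced or ponasterone-treated line without the transgene was analysed here, so effects of the inducer and of the transgene cannot be told apart. The p-values below set the group differences against the spread between these samples, and that spread may be technical only.

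Intermediate filaments are rope-like polymers of coiled-coil proteins, and each cell type builds them from its own set of chains. Keratins assemble only as pairs of a type II chain, such as Krt8, with a type I chain, such as Krt18 or Krt19. These simple-epithelial keratins are known from single-layered epithelia. Neurons use neurofilament chains and, in peripheral and neural-crest-derived neurons, peripherin, which was described early in PC12 cells. Nestin marks many progenitor and regenerating cells and needs a partner such as vimentin to polymerize. Lamins line the inner face of the nuclear envelope.

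The keratin pair Krt8 and Krt18, nestin and lamin A/C transcripts were higher in induced cells, while the neuronal chains Nefm and Prph did not pass the test. Krt18 was 2.09-fold higher by 1 probe set and 1.83-fold higher by the other, Krt8 was 1.87-fold higher, and Nes and Lmna were each 1.46-fold higher. The remaining probe sets, those of Krt19, Vim and Nefl and a second one of Nes, had signals in the range of the negative controls. Values are the authors' scaled signals, 1 per probe set and array. As a mark of low signal, the 95th percentile of 38 negative control probe sets lay between 102 and 137 on the induced arrays and between 128 and 183 on the uninduced arrays. Differences are induced minus uninduced on the scale of log2(signal + 7), fitted with limma over the 6129 probe sets whose mean signal reached the 30th percentile (36.0). Of the 13 filament probe sets 9 lay above that limit, for 8 genes, and 4 lay below it and were not tested. A call means a Benjamini-Hochberg adjusted p under 0.05 over all 6129.

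Over all tested probe sets, 4.10% were called higher in induced cells, 2.97% lower, and 7.06% in either direction. Among the filament probe sets 5 were called, all higher, for 4 genes, and 4 were tested and not called. In the 5 called probe sets the groups did not overlap, with every induced array the higher, a separation found in 6.48% of all tested probe sets. The members differ in signal level, and those near the controls could pass the test only with large changes, so the 5 calls are not a rate for the family.

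**Figure D1:**
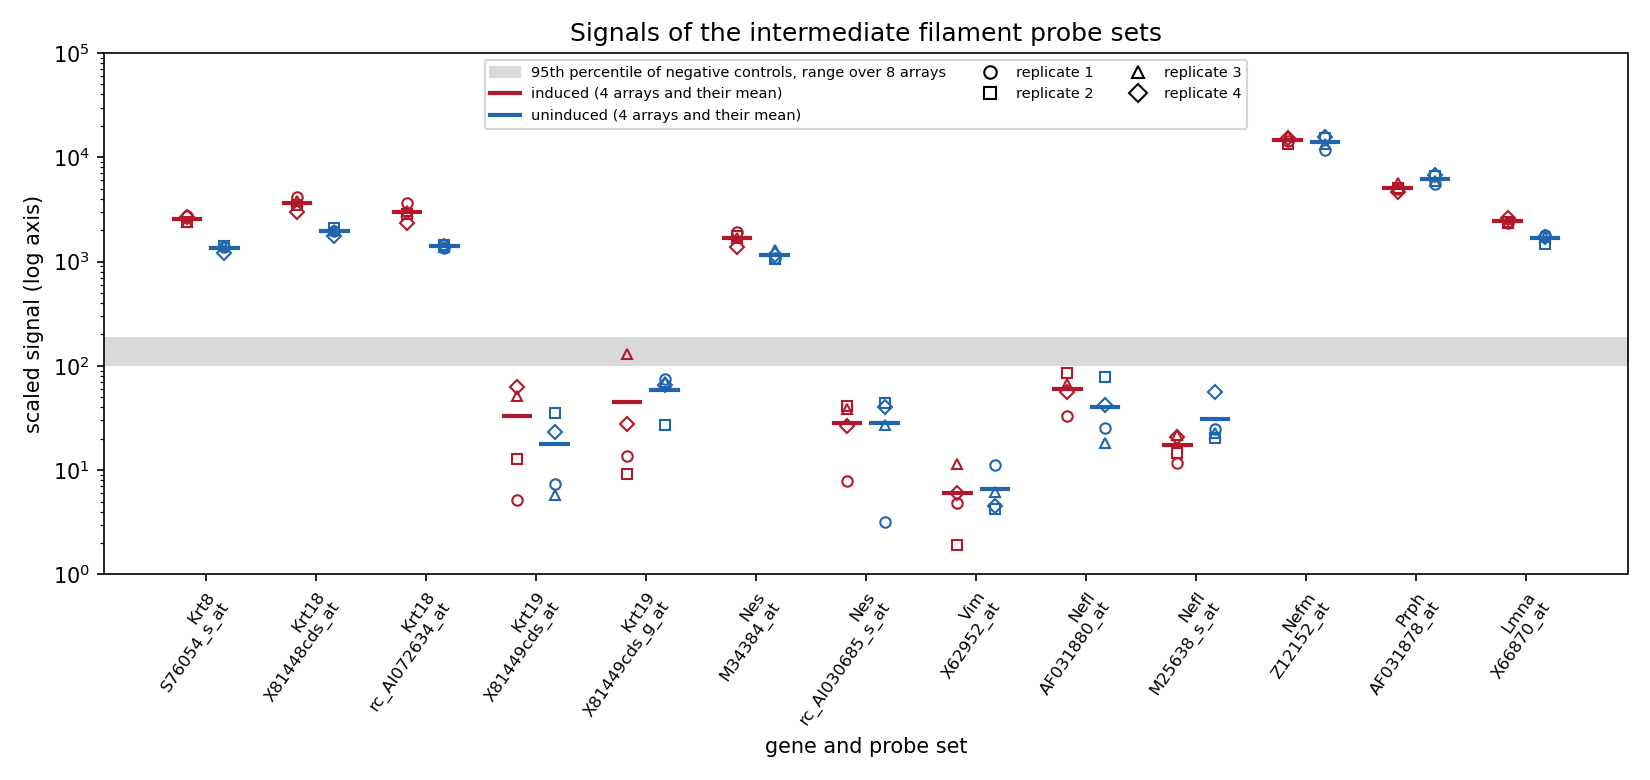
Scaled signal (log axis) of the 13 intermediate filament probe sets on each of 4 induced and 4 uninduced arrays, with group means as lines and the range of the negative controls' 95th percentile as a grey band. The probe sets of Krt8, Krt18, Lmna, Nefm and Prph and 1 of Nes lie above the band on all 8 arrays, and the other 6 lie in or below it.

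Krt8, the type II partner of the pair, had signals of 2734, 2384, 2393 and 2673 in induced replicates 1 to 4, against 1373, 1424, 1422 and 1215 in uninduced replicates 1 to 4. The lowest induced array stood well clear of the highest uninduced array, and both groups were tight. The log2 difference was 0.90 ± 0.09 (SE; limma adjusted p = 9.7e-05), which put Krt8 at rank 41 of 6129 by p.

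Krt18, the type I partner, was read by 2 probe sets. The brighter, X81448cds_at, had signals of 4181, 3494, 3843 and 2971 in induced replicates 1 to 4, against 1968, 2120.1, 2013 and 1773 in uninduced replicates. The other, rc_AI072634_at, had 3666, 2859, 3025 and 2335 in induced replicates and 1350.3, 1439, 1381 and 1425 in uninduced replicates. The probe sets agreed on the order of the induced arrays: replicate 1 was highest and replicate 4 lowest in both. Their log2 differences were 0.87 ± 0.11 for X81448cds_at (limma adjusted p = 4.8e-04) and 1.07 ± 0.12 for rc_AI072634_at (limma adjusted p = 2.0e-04). The spread among induced arrays of rc_AI072634_at (SD 549, mean 2971, n = 4) was far wider than among uninduced arrays (SD 41.0, mean 1399, n = 4).

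Krt8 and Krt18 lie next to each other on rat chromosome 7, with no protein-coding gene between them in the RefSeq list. The 250 bases before each annotated start are given because the transcripts of these neighbouring genes rose together, and those of Nes and Lmna because theirs rose too. Sequences are from RefSeq, build GRCr8, 5′ to 3′ on the gene's strand. Capitals mark matches on either strand to the 6 motifs searched. These were TGANTCA for AP-1 factors, TGACGTCA for the cyclic AMP response element or CRE, and GCGNGGGCG for Egr factors. The others were GGGCGG for Sp1, TATAAA for the core promoter element of that name, and CCAAT for the factors named after it.
Krt8, GRCr8 chr7:135010340-135010589, minus strand: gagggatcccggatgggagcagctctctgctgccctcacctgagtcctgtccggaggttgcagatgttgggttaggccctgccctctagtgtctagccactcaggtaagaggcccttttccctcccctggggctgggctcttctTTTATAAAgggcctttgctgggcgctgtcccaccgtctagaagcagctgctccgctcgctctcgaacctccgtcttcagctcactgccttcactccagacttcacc
Krt18, GRCr8 chr7:135035918-135036167, plus strand: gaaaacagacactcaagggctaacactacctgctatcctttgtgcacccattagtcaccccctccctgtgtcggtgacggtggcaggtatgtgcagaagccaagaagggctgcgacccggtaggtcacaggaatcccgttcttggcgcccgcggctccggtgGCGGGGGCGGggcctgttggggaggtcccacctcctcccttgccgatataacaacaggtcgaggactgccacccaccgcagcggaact
Nes, GRCr8 chr2:175736338-175736587, plus strand: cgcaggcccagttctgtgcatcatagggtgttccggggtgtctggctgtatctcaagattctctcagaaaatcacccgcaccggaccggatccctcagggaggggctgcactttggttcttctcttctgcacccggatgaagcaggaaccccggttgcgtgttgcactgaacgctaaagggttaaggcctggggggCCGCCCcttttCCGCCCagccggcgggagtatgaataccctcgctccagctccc
Lmna, GRCr8 chr2:176258236-176258485, minus strand: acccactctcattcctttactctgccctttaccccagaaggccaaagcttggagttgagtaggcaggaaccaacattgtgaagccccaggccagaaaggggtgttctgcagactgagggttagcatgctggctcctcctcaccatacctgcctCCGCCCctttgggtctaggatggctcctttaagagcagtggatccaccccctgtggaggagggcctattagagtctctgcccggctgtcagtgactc

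The Krt8 window held TATAAA once on each strand, overlapping, with first bases 106 and 104 bases before the start, and none of the other motifs. The Krt18 window held no TATAAA, 1 Egr match and 1 Sp1 match that overlap each other. Nes had 2 Sp1 matches and Lmna 1. Among 33469 rat promoters of the same length, 12.9% held TATAAA, 30.5% Sp1, 4.29% the Egr letters, 6.34% the AP-1 letters, 1.59% the CRE and 34.0% CCAAT. AP-1 and CRE letters were found in none of these 4 windows. These are letter matches in a short window, and the promoters of the pair had no motif of the 6 in common.

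The ratio within the keratin pair was compared array by array, since scaling cancels there. Log2 Krt8 minus log2 Krt18 (X81448cds_at) averaged -0.50 ± 0.24 on induced arrays and -0.53 ± 0.03 on uninduced arrays (SD, n = 4 each). The difference of 0.03 was within the spread (exact two-sided permutation test over 70 splits, p = 0.971; Benjamini-Hochberg over 4 pairs, 0.971). Leaving out 1 array moved it between -0.08 and 0.09. With the mean of both Krt18 probe sets in place of X81448cds_at it was -0.06, of the opposite sign. Induced replicate 4 stood apart at -0.15, against -0.68 to -0.55 on the other induced arrays, since its Krt18 signal was the lowest of the group while its Krt8 signal was not. This p does not show that the pair changed equally.

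Krt19, another type I keratin of simple epithelia, gave signals in the range of the controls. Its probe set X81449cds_g_at had 13.8, 9.1, 129 and 27.6 in induced replicates 1 to 4, against 74.1, 26.9, 69.5 and 64.9 in uninduced replicates. The groups overlapped, and only induced replicate 3 exceeded its array's control percentile. The log2 difference of -0.81 ± 0.63 did not pass (limma adjusted p = 0.576). The second probe set, X81449cds_at, ranged from 5.2 to 62.9 on induced arrays and from 5.8 to 35.4 on uninduced arrays and was below the limit for testing.

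Nestin was read by M34384_at at 1910.4, 1759, 1691 and 1383 in induced replicates 1 to 4, against 1083, 1063, 1296 and 1151 in uninduced replicates. The groups did not overlap, but induced replicate 4 came close to uninduced replicate 3. The log2 difference was 0.55 ± 0.12 (limma adjusted p = 0.0136). The call ended with median centring of the arrays (adjusted p = 0.152), with no intensity trend in limma (0.0660) and without replicate 2 of both groups (0.131). Over all 18 alternatives its adjusted p ranged from 0.0041 to 0.152 and its difference from 0.48 to 0.64. The second probe set, rc_AI030685_s_at, gave 7.9 to 41.4 on induced arrays and 3.2 to 43.7 on uninduced arrays, under the controls on every array, so it is no second reading of the rise.

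Vimentin, the usual polymerization partner of nestin, was represented by X62952_at alone. Its signals were 1.9 to 11.4 on induced arrays and 4.2 to 11.3 on uninduced arrays, far below the controls and not tested. The table holds no detection calls, so these values show a probe set without measurable signal and not whether the transcript was present. The planned within-array comparison of Vim with Nes is not read for this reason.

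The nuclear lamin gene Lmna, which encodes lamins A and C, had signals of 2341, 2417, 2352 and 2608 in induced replicates 1 to 4, against 1799, 1462, 1712 and 1709 in uninduced replicates. Induced replicate 4, the lowest induced array for Krt18 and Nes, was the highest for Lmna. The log2 difference was 0.54 ± 0.09 (limma adjusted p = 0.0035), and it passed under all 18 alternatives (adjusted p from 0.0031 to 0.0454).

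**Figure D2:**
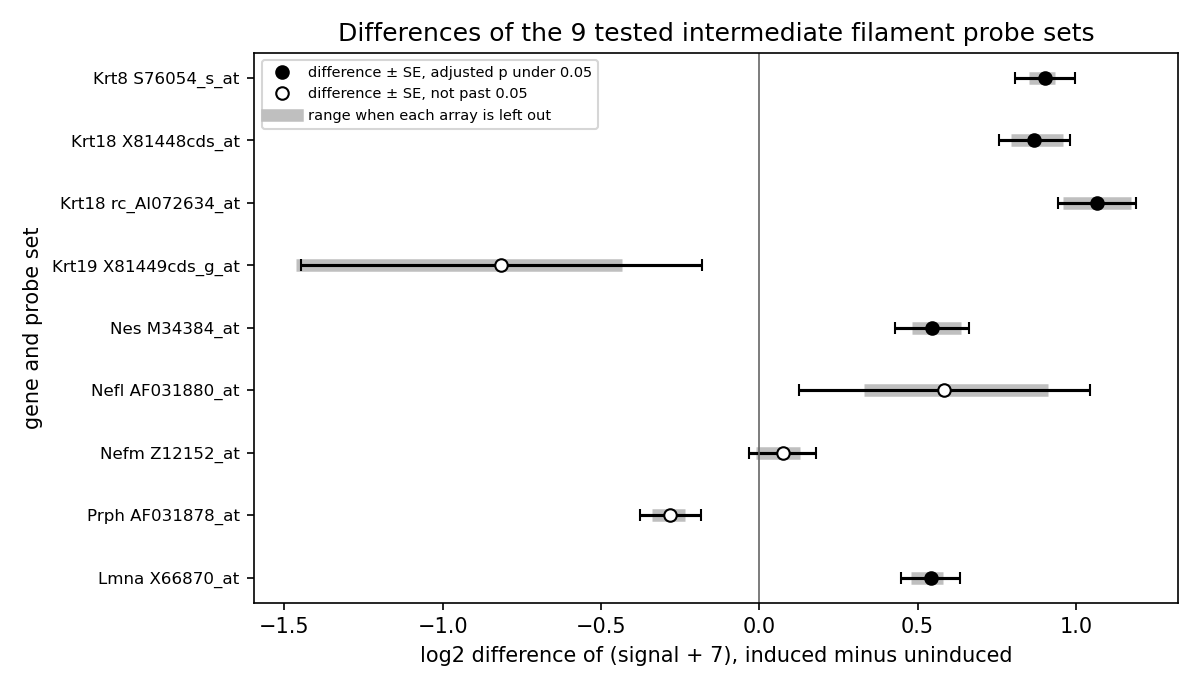
Log2 differences of (signal + 7), induced minus uninduced, with standard errors from limma, for the 9 tested filament probe sets, with grey bars for the range when each of the 8 arrays was left out in turn. Filled points passed an adjusted p of 0.05: Krt8, both Krt18 probe sets, Nes and Lmna, between 0.54 and 1.07, and their grey bars stay above 0.

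Among the neuronal chains, Nefm, the medium neurofilament chain, was measured well above the controls and hardly moved. Its signals were 14184, 13396.5, 15849 and 15182 in induced replicates 1 to 4, against 11692, 15289, 13371.5 and 15597 in uninduced replicates. The groups overlapped in part: uninduced replicates 1 and 3 lay below every induced array, and induced replicate 3 above every uninduced array. The log2 difference of 0.07 ± 0.10 did not pass (limma adjusted p = 0.807).

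Peripherin (Prph), the type III protein of peripheral neurons, had 4911, 5060.4, 5716 and 4661 in induced replicates 1 to 4, against 5499, 6607, 5868 and 6778 in uninduced replicates. Of the induced arrays 3 lay below every uninduced array, and induced replicate 3 lay above uninduced replicate 1. The log2 difference was -0.28 ± 0.10 and did not pass (limma adjusted p = 0.127, and 0.0740 to 0.551 over the alternatives).

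Set against Nefm on the same array, Prph was lower in every induced sample. Log2 Prph minus log2 Nefm averaged -1.53 ± 0.13 on induced arrays and -1.17 ± 0.06 on uninduced arrays (SD, n = 4 each), with no overlap. The difference of -0.35 had an exact two-sided permutation p of 0.0286, the smallest that 70 splits can give, and it did not pass after adjustment over the 4 pairs (0.114). At that smallest p an adjusted value under 0.05 could be had only if at least 3 of the 4 pairs reached it. In the exact tests without 1 array the adjusted p was 0.0571 to 0.114. Leaving out 1 array kept it between -0.40 and -0.30.

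Nefl, the light neurofilament chain on which the other chains usually assemble, gave 32.9, 85.6, 66.5 and 55.6 in induced replicates 1 to 4 with AF031880_at, against 25.1, 77.7, 18.3 and 41.9 in uninduced replicates. All 8 values lay under the controls of their array and the groups overlapped. The log2 difference of 0.58 ± 0.46 did not pass (limma adjusted p = 0.581), with a standard error far wider than that of Nes. The second probe set, M25638_s_at, gave 11.7 to 21.7 on induced arrays and 20.5 to 56.2 on uninduced arrays. With Nefl under the controls on all 8 arrays, its planned within-array comparison with Nefm is not read.

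**Figure D3:**
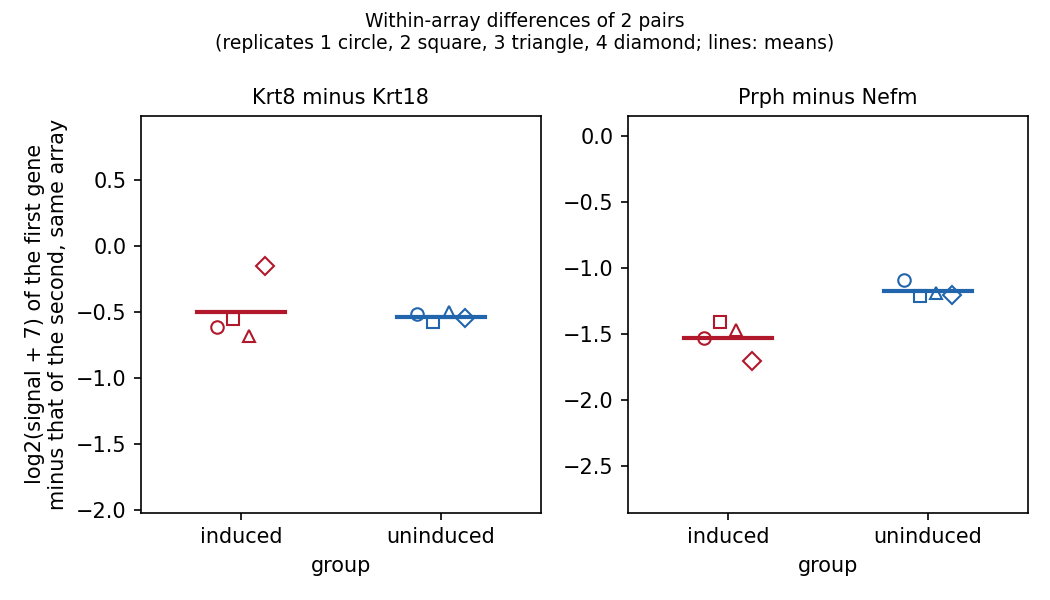
Within-array difference of log2(signal + 7) for 2 pairs of filament genes on the 4 induced and 4 uninduced arrays, with group means as lines; each panel spans 3 log2 units. Prph minus Nefm is lower on all 4 induced arrays (mean -1.53) than on the uninduced arrays (mean -1.17), and in Krt8 minus Krt18 the groups overlap.

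The proteins that work with these filaments were followed through 4 lists, each gene represented by its brightest probe set. Of 3623 genes read this way, 4.31% were called higher and 2.90% lower in induced cells, with a median log2 difference of -0.05. Among nuclear lamina partners 8 genes were tested: 0 rose and 1 fell in limma, at a median of -0.25. At an unadjusted p under 0.05, 9.05% of the 3623 genes were higher and 9.72% lower in induced cells, and of the 8 lamina genes 0 were higher and 4 lower. The gene that fell was Tmpo, which encodes the lamina-associated polypeptides 2, at 993 ± 120 in induced cells and 1679 ± 217 in uninduced cells (SD, n = 4 each; log2 difference -0.75 ± 0.12, limma adjusted p = 0.0023). A second Tmpo probe set fell by 0.69, and those at -0.87 and -0.58 did not pass. Of genes picked here with their values known, Lmnb1, a B-type lamin, differed by -0.62 ± 0.27 and Lbr, the lamin B receptor, by -0.77 ± 0.26, and neither passed (limma adjusted p = 0.245 and 0.112). This Lmnb1 probe set was above the controls on only 4 of 8 arrays, and the dimmer one, at -0.57, on none.

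Other intermediate filament genes had 6 tested members and 0 calls in limma in either direction, at a median of -0.21; 2 were lower and 0 higher at an unadjusted p under 0.05. The members of lowest p were Ina, alpha-internexin, and Lmnb1, which is also counted among the lower lamina genes. Ina was at 827 ± 84.5 in induced and 1029 ± 80.7 in uninduced cells (log2 difference -0.32 ± 0.11, limma adjusted p = 0.135). Ina and Nefh, the heavy neurofilament chain (0.15 ± 0.21, limma adjusted p = 0.805; picked with its value known), were the 2 genes of this list above the controls on all arrays. Krt5, Krt10 and Krt20 were under the controls on every array, as was desmin (Des).

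Plakins and filament anchors had 6 tested members and 0 calls in limma, at a median of 0.10; 3 were higher and 0 lower at an unadjusted p under 0.05. Plec, the giant linker plectin, was at 2453 ± 235 in induced and 1931 ± 208 in uninduced cells (log2 difference 0.35 ± 0.10, limma adjusted p = 0.0743), and it passed only without uninduced replicate 4 (adjusted p = 0.0273; 0.0273 to 0.312 over the alternatives). The kinesin light chain Klc1 differed by 0.32 ± 0.13 (limma adjusted p = 0.218). Jup, plakoglobin, differed by 0.47 ± 0.20 (limma adjusted p = 0.245; picked with its value known).

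Kinases and phosphatases known to act on filament proteins had 31 tested members, of which 1 rose, 3 fell and 27 were not called, at a median of -0.06. At an unadjusted p under 0.05 there were 1 higher and 6 lower. Cdk1, the mitotic kinase that phosphorylates lamins and vimentin, fell by 0.79 ± 0.09 (limma adjusted p = 2.3e-04). Plk1, another mitotic kinase, fell by 0.43 ± 0.09 (limma adjusted p = 0.0149), and Ppp1ca, a catalytic subunit of protein phosphatase 1, by 0.45 ± 0.12 (limma adjusted p = 0.0477). Camk2d, a calcium-dependent kinase, rose by 0.52 ± 0.11 with its brightest probe set (limma adjusted p = 0.0116). This call ended with median centring (adjusted p = 0.0660), with no intensity trend (0.0558) and without replicate 2 of both groups (0.0569). A dimmer Camk2d probe set above the controls on all 8 arrays, J05072_at, differed by 0.11 ± 0.17 and did not pass (limma adjusted p = 0.837). Plk1 and Ppp1ca did not pass when uninduced replicate 2 was left out (adjusted p = 0.0588 and 0.126), and 1 gene of the list then remained lower. Ppp1ca passed in 6 of its 18 alternatives and in 1 of the 8 fits without 1 array.

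**Figure D4:**
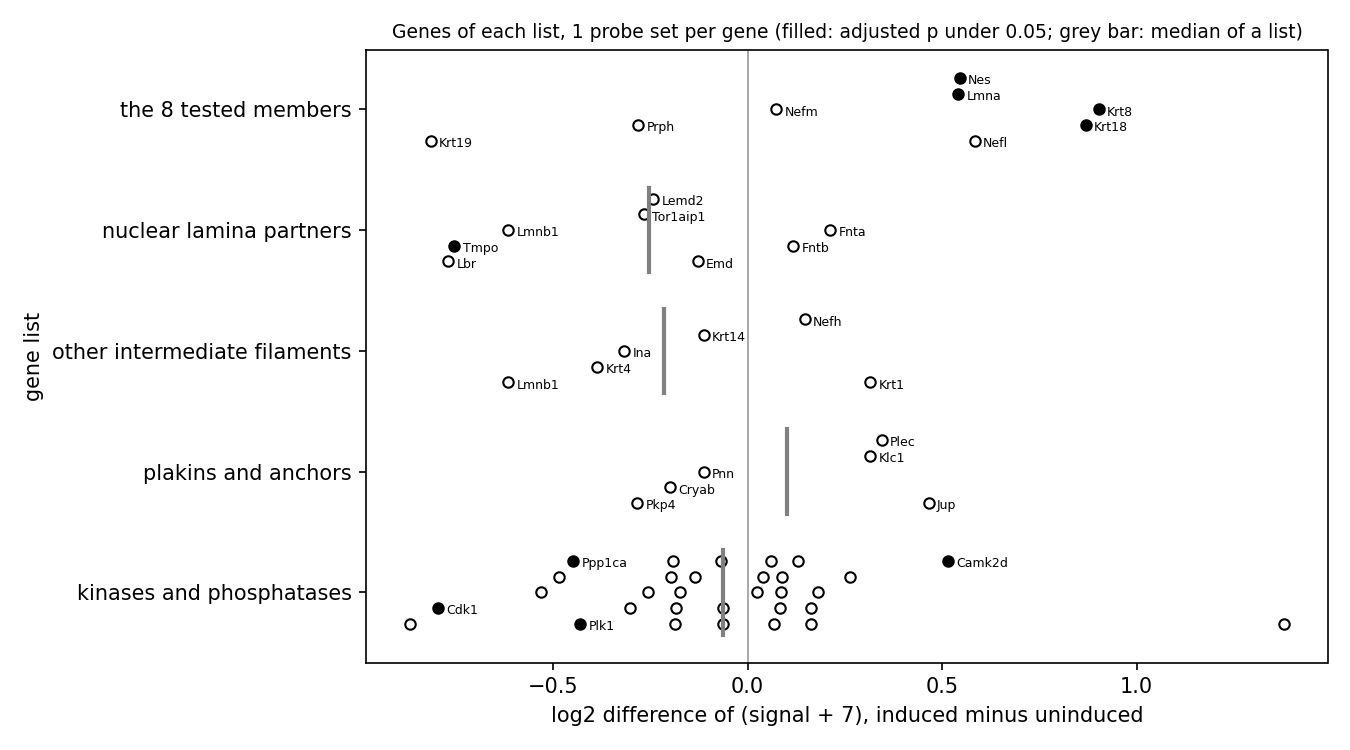
Log2 differences of (signal + 7), induced minus uninduced, for the 8 tested filament genes and for the tested genes of 4 related lists, 1 probe set per gene, filled where the adjusted p was under 0.05, with the list's median as a grey bar. Krt8, Krt18, Nes and Lmna are filled on the right, and Tmpo is the single filled gene of the nuclear lamina list, at -0.75.

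For each of the 4 filament genes that rose, the 3 genes with the most similar profile over the 8 arrays were found by the root mean square difference of log2 values, each taken relative to its uninduced mean. Closest to Krt8 were Tuba4a, an alpha-tubulin (0.110; log2 difference 0.79 ± 0.10), Acly, ATP citrate lyase (0.110; 1.01 ± 0.08), and Hspa5, the main chaperone of the endoplasmic reticulum (0.132; 0.81 ± 0.10). Closest to Krt18 were Gstm1, a glutathione S-transferase (0.108; 0.83 ± 0.11), Ezr, ezrin, which ties actin to the plasma membrane (0.145; 0.84 ± 0.13), and Tuba4a (0.146). Tuba4a is in both sets, while Krt8 and Krt18 were not among each other's 3 closest.

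Closest to Nes were Apc, a regulator of beta-catenin (0.0693; log2 difference 0.54 ± 0.14), Map2k1, the kinase MEK1 (0.0781; 0.53 ± 0.11), and Capn2, the large chain of a calpain protease (0.110; 0.55 ± 0.13). Closest to Lmna were Prr13 (0.0909; 0.46 ± 0.10), Grina (0.0909; 0.61 ± 0.10) and Sdcbp, the adaptor syntenin (0.0951; 0.55 ± 0.08). Whether the arrays of a group shared their preparation is not stated in the labels. This likeness is a description over 8 arrays that includes the group difference itself.

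Markers were read beside these values, since keratins and nestin also occur in other cells. Of 9 chromaffin markers on the array 5 were above the controls on every array, among them Chgb and Phox2a, and Th was above them on 1 array and Dbh and Ddc on none. The summed signal of this list was 16984 to 18859 on induced arrays and 17779 to 21676 on uninduced arrays. Of its 7 tested genes 0 were called higher in limma and 2 lower, Phox2a (fell by 0.70 ± 0.09) and Gata3 (fell by 0.68 ± 0.15). At an unadjusted p under 0.05 the counts were also 0 higher and 2 lower. Of all 3623 genes, 4.31% were called higher and 2.90% lower, and 9.05% and 9.72% at the unadjusted p.

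Of 7 epithelial markers 3 were above the controls on every array in both groups: Epcam, Cldn3 and Cldn7. Their list's summed signal was 4663 to 5295 on induced arrays and 5389 to 6068 on uninduced arrays. This gap lay mostly in Cldn3, with a mean signal of 1858 on induced and 2639 on uninduced arrays. Epcam had means of 1117 on induced and 1149 on uninduced arrays, and Cldn7 1548 on induced and 1429 on uninduced arrays. Cldn3, a tight junction protein, fell by 0.50 ± 0.13 (limma adjusted p = 0.0332) and by 0.66 with a second probe set, Epcam differed by -0.05 ± 0.12 and Cldn7 by 0.12 ± 0.09. Of 6 tested genes 0 were called higher in limma and 1 lower, beside 4.31% and 2.90% of all genes. At an unadjusted p under 0.05, 0 were higher and 2 lower. The other lower gene was Ocln, occludin, above the controls on 6 of 8 arrays (-0.96 ± 0.42, limma adjusted p = 0.250). Its other probe sets were at -0.18 and -0.16.

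Of 9 fibroblast markers 3 were above the controls on every array, Col1a1, Col3a1 and Thy1, and the list summed to 4254 to 5485 on induced arrays and 4148 to 5166 on uninduced arrays. Its 7 tested genes gave 0 calls in limma by their brightest probe sets (1 higher and 0 lower at an unadjusted p under 0.05), at a median of 0.0015, but other probe sets of Col1a1, a collagen chain, rose by 1.05 and 0.71. Another 5 of the 9, among them Lum and Postn, were under the controls on every array. Of 8 Schwann cell and glial markers only Ngfr, a neurotrophin receptor that PC12 cells express, and Mag were above the controls on every array. Of the 6 tested genes of this list 1, Ngfr, was called higher in limma and 0 lower, beside 4.31% and 2.90% of all genes. Ngfr rose by 0.45 ± 0.11, while its other tested probe set, at -0.33, did not pass. The list summed to 3859 to 4663 on induced and 3037 to 3593 on uninduced arrays. This gap lay in Ngfr, at a mean of 3824 on induced and 2802 on uninduced arrays. The median log2 difference of the list's tested genes was -0.25, and Sox10, S100b and Aqp4 were under the controls throughout.

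Of 5 leukocyte markers 4, and of 5 adrenal cortex markers 4, were above the controls on no array. Leukocyte markers summed to 48.4 to 201 on induced arrays and 47.5 to 161 on uninduced arrays, and adrenal cortex markers to 95.8 to 241 on induced arrays and 130 to 282 on uninduced arrays. In bulk RNA, a change in the share of cells that express a gene and a change in RNA per cell cannot be told apart.

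RNA quality controls had overlapping ranges in the 2 groups. The log2 ratio of 3′ to 5′ signal was 0.39 to 0.56 on induced and 0.20 to 0.50 on uninduced arrays for Gapdh, -0.67 to 0.57 on induced and 0.08 to 0.57 on uninduced arrays for beta-actin, and 0.50 to 1.14 on induced and 0.87 to 1.37 on uninduced arrays for hexokinase. Their part in the differences was not tested.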

How the data were processed

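RNA of 8 samples was measured on 8 arrays, 1 array per sample, grouped as induced or uninduced by the sample titles. The authors deposited intensities on a linear scale, already scaled across arrays. The program is not given in the sources used here. Median signals still differed between arrays, from 97.5 to 134.9 on induced and from 106.3 to 127 on uninduced arrays. Gene symbols came from the array's annotation table: 7018 probe sets had 1 symbol, 308 several and 1473 none. Of the 7018, 6994 had an identifier found in the RefSeq list (GRCr8), each with the same symbol. Of 8799 probe sets, 59 controls and 2611 with a mean signal under 36.0 were left out. log2(signal + 7), 7 being the rounded 10th percentile, was the response in limma 3.58.1 under R 4.3.3 (lmFit and then eBayes with its trend option, 6 residual and 5.77 prior degrees of freedom), with Benjamini-Hochberg adjustment over 6129 probe sets. The fit was also run on simulated data with independent normal noise for each probe set. That simulation held no shared array effects, so it cannot show how the calls depend on scaling. Pairs of genes were compared with an exact permutation test. Errors of differences are standard errors, errors of signals SDs. The number of arrays limits the precision.

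The members, lists, pairs and naming rule were chosen with earlier results of these data known. The rule names all member probe sets, up to 6 called genes of each list by lowest p or else the 2 of lowest p, and the 3 nearest profiles; further genes, those of the marker lists included, were picked with their values known. Spearman correlations between arrays were 0.945 to 0.967. Alternatives changed the added constant (1 or 32), the filter (none, or the 50th percentile), the scaling (median centring or quantile), the trend, a replicate block and the arrays left out.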

Additional observations from a re-analysis of the deposited data

Results flagged for a closer look

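The Krt19 probe set X81449cds_g_at had a signal of 26.9 on uninduced replicate 2, far from the other uninduced arrays at 64.9 to 74.1. The gap took 0.862 of the group's range on the log2 scale, above Dixon's 95% critical value for 4 samples. It was the 1 such case among 26 groups of 4 arrays examined, and chance flags about 5% of such groups. All values of that group are under the negative controls.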

How the results depend on the processing

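The 5 filament calls were 4 or 5 under all 18 alternatives, and Nes (M34384_at) was the 1 that was lost: with median centring (0.58), no intensity trend (0.55) and without replicate 2 of both groups (0.49). Krt8, Krt18 and Lmna passed under all 18. Over all probe sets, 433 calls (251 higher, 182 lower) became 230 (167 and 63) with median centring, 279 (101 lower) with no trend and 221 (141 and 80) without replicate 2 of both groups; the higher share was 58.0% as deposited and 72.6% with median centring. Centring on the tested probe sets only, chosen after seeing the data, called 350. Leaving out 1 array gave 313 to 408 calls, 112 to 164 of them lower (112 without uninduced replicate 3, 119 without uninduced replicate 2). The replicate number as a block called 367 and made 5 filament calls; deviations of same-numbered samples correlated between -0.144 and 0.191, and not every sample correlated best with its own number, so the numbers were not taken as pairs. Plakins gave 0 to 1 higher without 1 array. Of the kinases and phosphatases, the 1 higher became 0 with median centring, no trend, averaging over probe sets of the same gene and without replicate 2 of both groups. The 3 lower became 1 with either centring, no trend and without replicate 2 of both groups, and 1 to 3 without 1 array. The causes were not tested. No pair passed its exact test without 1 array (lowest adjusted p 0.0571). There too an adjusted value under 0.05 needed at least 3 of the 4 pairs at the smallest p, so these tests decide little. As a block and without replicate 2 of both groups such a test cannot reach 0.05, so only values were recomputed. Among the pairs that were read, Prph minus Nefm kept its sign without 1 array and Krt8 minus Krt18 did not (-0.08 to 0.09). Signals near the controls limit what Krt19, Vim, Nefl and the second Nes probe set can show.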

Other observations

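Gene order in the RefSeq list gives the nearest tested neighbours of the filament genes that rose, a look added after the values were seen. Beside the Krt8 and Krt18 pair lay the keratin Krt4, with 2 protein-coding genes between it and Krt8 (log2 difference -0.39 ± 0.48, limma adjusted p = 0.773), and Tns2, a tensin, with 1 between it and Krt18 (-0.45 ± 0.35, limma adjusted p = 0.572). Next to Nes, Bcan, a brain proteoglycan, differed by 0.05 ± 0.19 (limma adjusted p = 0.938). Near Lmna, Bglap, osteocalcin, differed by 0.12 ± 0.58 (limma adjusted p = 0.958). None of these neighbours passed the test, and Krt4, Tns2 and Bglap were read at large standard errors. Nefl and Nefm are also direct neighbours, and neither passed.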
